A study of Mus musculus with 9 samples.

Results

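Type I interferon antiviral effectors are the proteins that interferon alpha and beta induce to sense, degrade or block viral nucleic acid and particles. The 45 effector genes described here were taken by symbol from a fixed list of such genes, out of 54059 genes in the deposited table. All 45 had values in the 9 libraries, and 44 of them reached a mean FPKM (fragments per kilobase, scaled to library size) of at least 1 over the 9 libraries. The other gene, Ifit3b, had a mean of 0.294 FPKM and was not tested.

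The libraries are polyadenylated RNA of peritoneal macrophages from C57BL/6 mice aged 8 weeks, 3 libraries in each of 3 groups. Cells were drawn into the peritoneum by 1 ml of starch broth, collected 3 days later, and the adherent ones were kept. The wild-type group (WT_1 to WT_3) and the SHP099 group (SHP099_1 to SHP099_3) are both of wild-type genotype. The knockout group (KO_1 to KO_3), M-Shp2-/- in the study and SHP2lyz2-/- in the labels, carries floxed Shp2 alleles deleted by Lyz2-cre, which acts in monocytes, mature macrophages and granulocytes. By the methods of the study, the cells were stimulated with imiquimod (IMQ), a TLR7 agonist, for 4 h. The inhibitor group received 10 µM SHP099, an allosteric inhibitor of the phosphatase SHP2, for 2 h before 10 µg/ml IMQ, and its wild-type control received 10 µg/ml IMQ alone. The IMQ concentration for the knockout cells is not stated. The labels name no IMQ treatment, and no group without IMQ was analysed here. The labels do not say that libraries of a group came from separate animals, so p-values measure the spread between these libraries only, which may be technical.

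Interferon alpha and beta bind a receptor of the chains IFNAR1 and IFNAR2, and the kinases JAK1 and TYK2 then pass the signal on by phosphorylation. STAT2 and IRF9 are part of the factor ISGF3, which binds interferon-stimulated response elements in the promoters of effector genes. TLR7 signals through MYD88 to NF-κB and to interferon regulatory factors. IRF7, one of these factors, is itself an induced gene that amplifies interferon production.

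Ptpn11, which encodes SHP2, was checked first. It was at 45.8, 44 and 40 FPKM in the wild-type libraries, 18.6, 17.8 and 18.9 in M-Shp2-/- and 43, 42.1 and 39.6 with SHP099. The knockout libraries lay below all others, and Ptpn11 fell in M-Shp2-/- against wild type (-1.19 ± 0.10 (SE), adjusted p = 0.0168, lower in 3 of 3 libraries). Its adjusted p was 0.105, 0.125, 0.196 and 0.151 without WT_1, WT_2, KO_1 and KO_2 in turn, and 0.157 with the replicate number as a block. It was not past the test with SHP099 against wild type (-0.055 ± 0.086 (SE), adjusted p = 0.729). The table gives 1 value a gene, so reads outside the deleted part can remain in it. Of 8 macrophage markers, Lyz2 was the most abundant, at 4743 to 10715 FPKM, and Cd68 ranged from 1211 to 1739.5. The lowest of them were Mertk, at 3.28 to 13.3 FPKM, and Fcgr1, at 0.701 to 5.79. Depth, recovered from the spacing of low FPKM values, was 44382945, 50987743 and 42537893 reads in the wild-type libraries, 43186817, 41158286 and 45611746 in M-Shp2-/- and 43903554, 39842145 and 43823722 with SHP099.

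Promoters are shown for 4 of the named effectors, 3 with the searched letters and 1, Trim25, without them. A link between these letters and the values in the libraries was not tested. The letters searched were GAAA, any 2 bases and GAAA again, on both strands, the core of an interferon-stimulated response element. Overlapping matches were counted separately. Of the 33 effector genes with a RefSeq promoter (250 bases before to 50 after a start, GRCm38.p6), 17 held a match (51.5%), against 1079 of 27025 genes with a promoter (3.99%). Each sequence is 300 bases, read 5′ to 3′ on the strand of the gene, and capitals mark matches. Isg15 lies at chr4:156200769-156201068 on the minus strand, Ifit1 at chr19:34640639-34640938 on the plus strand, Ifi205 at chr1:174031706-174032005 on the minus strand and Trim25 at chr11:88999153-88999452 on the plus strand.
Isg15: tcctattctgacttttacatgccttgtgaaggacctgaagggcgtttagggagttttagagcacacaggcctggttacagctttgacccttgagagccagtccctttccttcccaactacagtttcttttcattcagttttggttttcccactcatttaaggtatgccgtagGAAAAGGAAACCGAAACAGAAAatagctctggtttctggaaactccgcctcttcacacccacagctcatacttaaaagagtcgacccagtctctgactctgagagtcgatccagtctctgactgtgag
Ifit1: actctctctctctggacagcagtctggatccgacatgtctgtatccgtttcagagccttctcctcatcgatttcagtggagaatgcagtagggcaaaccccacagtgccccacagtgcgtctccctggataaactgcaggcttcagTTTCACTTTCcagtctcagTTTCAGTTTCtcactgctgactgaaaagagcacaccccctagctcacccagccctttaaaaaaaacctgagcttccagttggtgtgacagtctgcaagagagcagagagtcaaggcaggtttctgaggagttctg
Ifi205: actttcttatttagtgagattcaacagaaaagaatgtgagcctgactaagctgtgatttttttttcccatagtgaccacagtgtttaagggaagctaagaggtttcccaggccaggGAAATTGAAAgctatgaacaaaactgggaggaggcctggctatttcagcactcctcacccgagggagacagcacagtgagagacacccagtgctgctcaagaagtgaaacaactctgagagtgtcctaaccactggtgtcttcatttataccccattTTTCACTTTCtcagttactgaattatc
Trim25: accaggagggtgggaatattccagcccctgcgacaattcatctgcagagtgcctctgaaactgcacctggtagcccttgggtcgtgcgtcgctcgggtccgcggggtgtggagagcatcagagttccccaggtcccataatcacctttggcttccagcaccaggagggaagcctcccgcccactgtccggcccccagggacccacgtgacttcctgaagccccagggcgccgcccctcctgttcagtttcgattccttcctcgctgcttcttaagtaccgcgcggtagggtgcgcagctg
Isg15 held 3 matches, each overlapping the next, Ifit1 and Ifi205 held 2 each, and Trim25 held 0. A match describes letters, and its absence says only that they are not in this window.

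One library stood apart, in the effectors and over all genes. WT_3 had the highest FPKM of the 9 libraries for 44 of the 45 effectors (97.8%), and for 737 of 11450 genes tested (6.44%). The exception was Slfn8, highest in WT_1. On the log2(FPKM + 1) scale, WT_3 differed from the mean of WT_1 and WT_2 by a median of 1.15 over the 44 effectors, and by -0.18 over all genes tested. For 29 of the 44 this gap was at least 1. Over all genes tested WT_3 was the lowest library for 5374 of 11450, but for 0 of the 45 effectors, and its median-of-ratios size factor was 0.849, against 0.979 to 1.1 in the other 8 libraries. The lowest library was KO_1 for 28 of the 45 effectors, and for 376 of 11450 genes tested. Where the fold change of an effector against wild type is given, its value without WT_3 therefore follows.

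**Figure D1:**
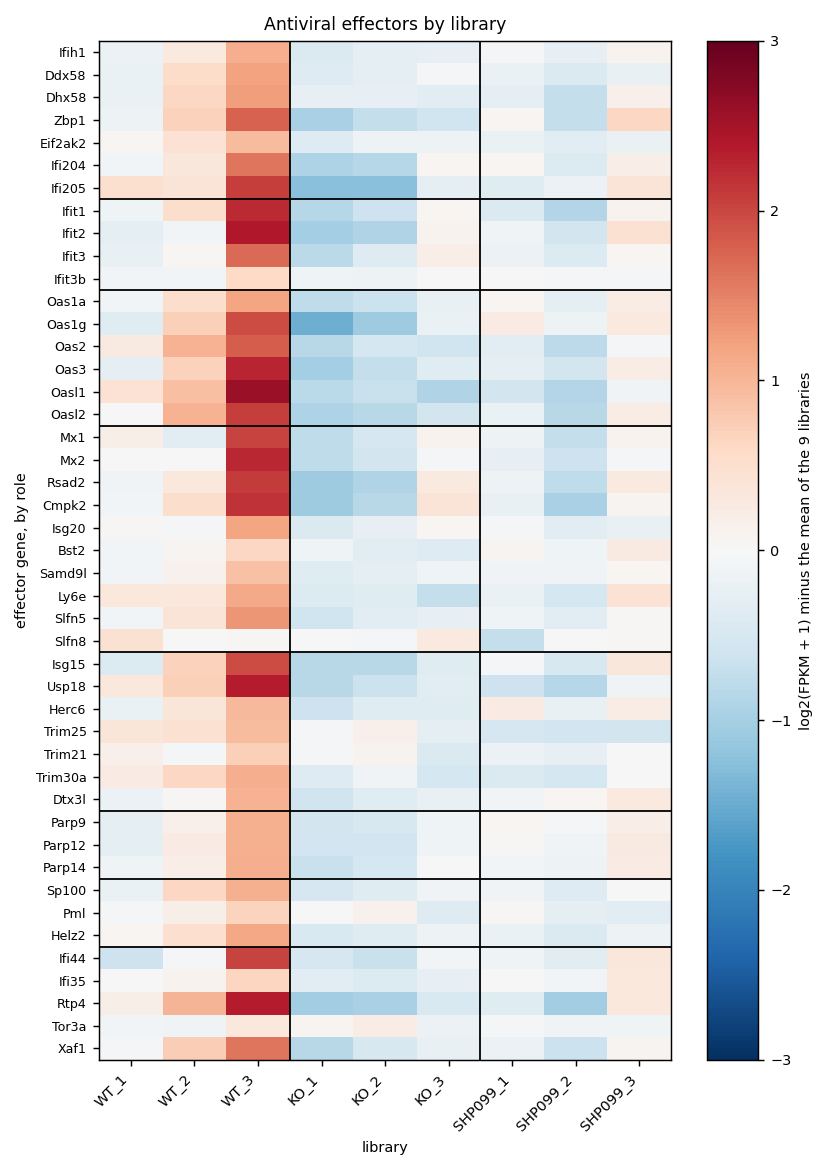
Rows are the 45 effector genes, separated by black lines into 8 roles, and columns are the 9 libraries, colored by log2(FPKM + 1) minus the mean of the gene over the 9 libraries. WT_3 is the reddest column in 44 of the 45 rows, Slfn8 being the exception.

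Against wild type, the effectors had lower values in M-Shp2-/-, and none passed the test. All 44 tested effectors had a negative log2 fold change of FPKM + 1, against 22.6% of the 11450 genes tested. For 24 of the 44, the 3 knockout libraries lay below the 3 wild-type libraries, against 3.07% of genes tested. None lay wholly above, against 16% of genes tested. Genes were called when the adjusted p reached 0.005 or less and the log2 fold change was 1 or more in size. By limma 0 effectors were called, against 0.00873% of genes tested, and 0 reached an adjusted p of 0.05 or less, against 0.0873%. Voom on recovered reads also gave 0 for both. At an unadjusted p under 0.05 there were 25, against 10.5% of genes tested, and 22 by voom. The smallest adjusted p of an effector was 0.388. Without WT_1 or without KO_3 the number of effectors whose libraries do not overlap was 37 and 39. Overlap is rarer for any gene with fewer libraries, and no share over all genes is given for these omissions. With 3 libraries on each side, an exact permutation test reaches no p under 0.1. In bulk RNA, fewer cells with a transcript and less transcript per cell cannot be told apart. Fold changes are on the log2(FPKM + 1) scale, which understates those of low genes.

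The median log2 fold change of the 44 effectors was -0.92, beside 0.15 over all genes tested. Scaling by median of ratios moved the median of all genes to 0.0063, so changes were also read relative to that median, and all 44 effectors lay below it. Without WT_3 the median of the effectors was -0.51, beside 0.084 over all genes. Without WT_3, 43 of 44 fold changes were negative, Tor3a being positive. By limma 0 effectors then reached an adjusted p of 0.05, against 5 of 11450 genes tested. At an unadjusted p under 0.05 there were 18, for which no share over all genes is given.

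SHP099 gave lower values too, with more overlap. All 44 fold changes were negative, against 28.8% of genes tested. In 9 effectors the SHP099 libraries lay below the wild-type libraries, against 6.77% of genes tested, and in 0 above, against 27.9%. These 9 were Eif2ak2, Ifi205, Oas2, Oasl1, Mx2, Usp18, Trim25, Trim30a and Helz2. By limma 0 were called, against 0.166% of genes tested, with 11 at an unadjusted p under 0.05, against 26.7%, and 10 by voom, which also called 0. An adjusted p of at most 0.05 was reached by 1 effector, Trim25, against 6.96% of genes tested. Leaving out WT_3 gave 3 (Oasl1, Trim25 and Usp18), against 1273 of 11450 genes tested. Leaving out WT_1 gave 5, against 284 of 11450. Leaving out SHP099_1, SHP099_2 or SHP099_3 gave 0 by limma, against 90, 47 and 116 of 11450 genes tested. At an unadjusted p under 0.05 there were 8, 7 and 12 effectors, for which no share over all genes is given. The number whose libraries do not overlap was 30 without WT_1 and 22 without SHP099_3. Fewer libraries make overlap rarer for any gene, and no share over all genes is given for these omissions.

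The median log2 fold change with SHP099 was -0.71, beside 0.13 over all genes tested, which median-of-ratios scaling moved to -0.00018. Without WT_3 it was -0.29, beside 0.061. Without WT_3, 36 of 44 fold changes were negative. Without WT_1 the median was -1.08. Both comparisons use the same 3 wild-type libraries.

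**Figure D2:**
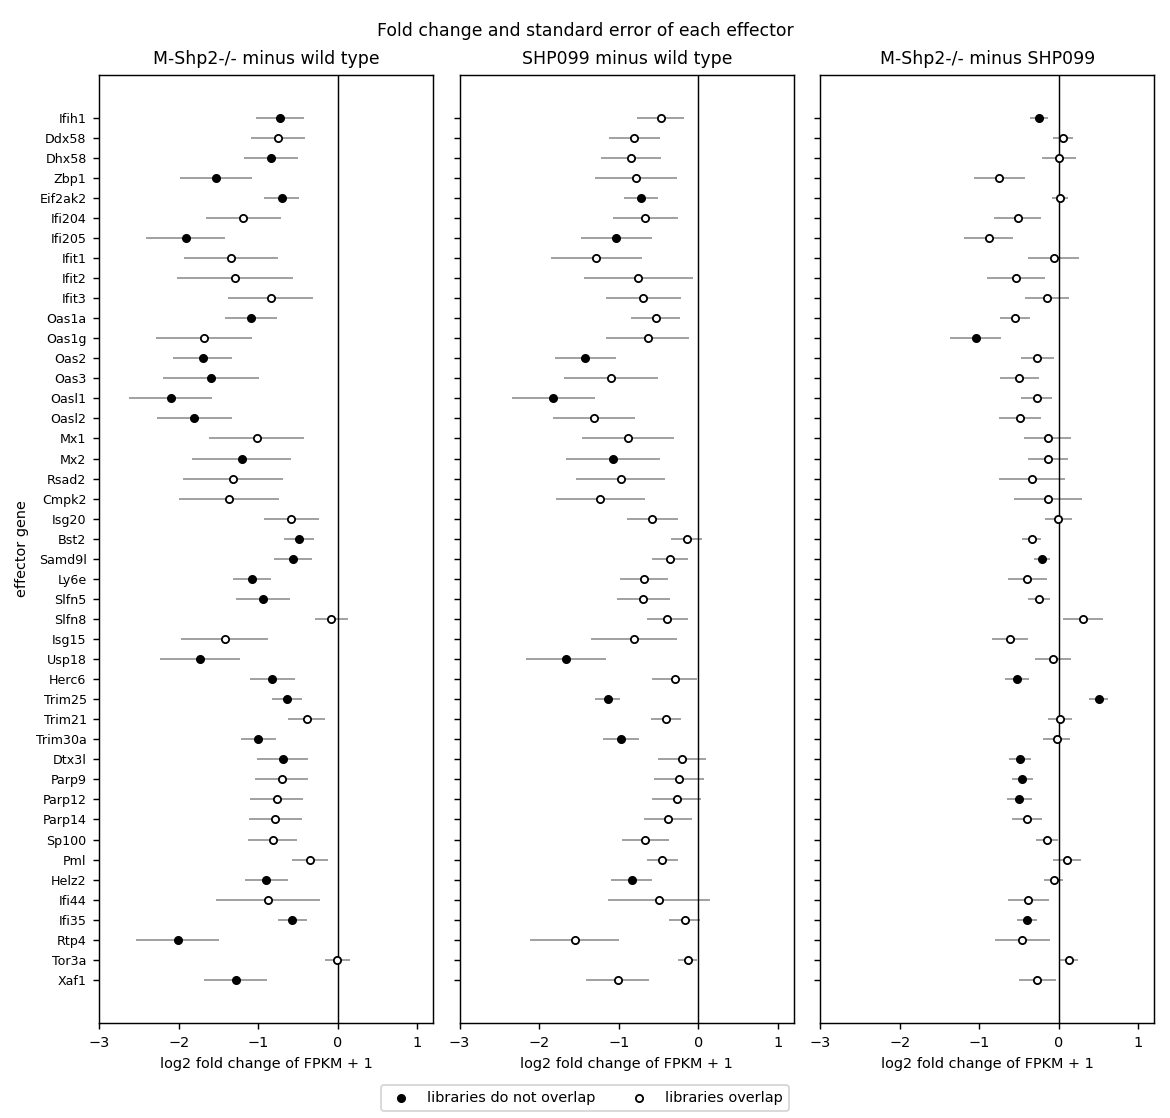
Points are log2 fold changes of FPKM + 1 for the 44 tested effectors in 3 comparisons, and bars are standard errors from limma (3 libraries a group). Filled points are effectors whose libraries do not overlap: 24 in M-Shp2-/- against wild type, 9 in SHP099 against wild type and 9 in M-Shp2-/- against SHP099.

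Nucleic acid sensors recognize viral RNA or DNA. Ifih1 encodes MDA5, a sensor of long double-stranded RNA, and was at 28.8, 40.4 and 70.7 FPKM in the wild-type libraries, 24.1, 26.6 and 27.3 in M-Shp2-/- and 31.4, 27.4 and 35.1 with SHP099. Its knockout libraries lay below both other groups. The log2 fold change was -0.72 ± 0.30 (SE) in M-Shp2-/- and -0.47 ± 0.30 (SE) with SHP099 against wild type, with adjusted p of 0.471 and 0.357. Without WT_3 these fold changes were -0.38 and -0.13. Ifi205, a member of the PYHIN family, was at 43, 40.8 and 133 FPKM in the wild-type libraries, 12.4, 12.2 and 24.8 in M-Shp2-/- and 23.7, 27.3 and 40.2 with SHP099. Both other groups lay below the wild-type libraries, and WT_3 was 3.17 times the mean of WT_1 and WT_2. Its fold change in M-Shp2-/- was -1.92 ± 0.50 (SE) (adjusted p = 0.435), and -1.37 without WT_3. SHP099_3 lay just below WT_2, and the fold change with SHP099 was -1.03 ± 0.45 (SE) (adjusted p = 0.195), and -0.48 without WT_3. In transcripts, 18.6% of the 50-base stretches of Ifi205 occur in other genes, so its reads may be shared. Of the 7 sensors, 5 had knockout libraries below wild type, against 3.07% of genes tested, and Ddx58 and Ifi204 overlapped.

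Of the IFIT proteins, IFIT1 binds viral RNA that lacks host cap marks. Ifit1 was at 8.7, 14.5 and 49 FPKM in the wild-type libraries, 4.87, 5.95 and 10.2 in M-Shp2-/- and 6.84, 4.82 and 10.4 with SHP099. Ifit2 was at 8.59, 10 and 60.6 FPKM in the wild-type libraries, 4.7, 5.24 and 11.4 in M-Shp2-/- and 9.77, 6.89 and 14.9 with SHP099. WT_3 lay far above the other 8 libraries in both, and KO_3 lay above WT_1, so the groups overlapped. Ifit2 had a fold change of -0.75 ± 0.69 (SE) with SHP099, which became 0.11 without WT_3. Ifit1 had -1.35 ± 0.59 (SE) in M-Shp2-/- and -0.67 without WT_3. Of the 4 IFIT genes, 0 had groups that did not overlap. Over all genes tested, knockout libraries lay below wild type for 3.07%, and SHP099 libraries for 6.77%. Ifit3 shares 51.2% of its 50-base stretches with Ifit3b, and both are uncertain.

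OAS enzymes make 2′-5′ oligoadenylate, which activates RNase L, and the OASL proteins are their relatives. OASL1, which lacks that activity, represses translation of Irf7, and Oasl1 was at 29.3, 40.6 and 135 FPKM in the wild-type libraries, 11.7, 13.2 and 11 in M-Shp2-/- and 14.2, 11.2 and 19.9 with SHP099. Both other groups lay below the wild-type libraries. Its fold change was -2.10 ± 0.52 (SE) (adjusted p = 0.424) in M-Shp2-/- and -1.82 ± 0.53 (SE) (adjusted p = 0.082) with SHP099. Without WT_3 these were -1.46 and -1.18, with adjusted p of 0.138 and 0.0377. Oasl2 was at 34.7, 71.8 and 149 FPKM in the wild-type libraries, 17.8, 19.1 and 23.3 in M-Shp2-/- and 29.8, 18.8 and 40.7 with SHP099. Its knockout libraries lay below wild type, and SHP099_3 lay above WT_1.

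Oas2 was at 6.58, 12 and 21.3 FPKM in the wild-type libraries, 2.55, 3.37 and 3.16 in M-Shp2-/- and 4.06, 2.69 and 5.1 with SHP099. Both other groups lay below wild type, with fold changes of -1.70 ± 0.37 (SE) in M-Shp2-/- and -1.42 ± 0.39 (SE) with SHP099, or -1.31 and -1.03 without WT_3. Oas1g was at 7.81, 17.5 and 42.9 FPKM in the wild-type libraries, 3.1, 4.41 and 8.78 in M-Shp2-/- and 12.4, 9.17 and 12.9 with SHP099. Its knockout libraries lay below the SHP099 libraries, and KO_3 lay above WT_1. Against SHP099 the fold change in M-Shp2-/- was -1.04 ± 0.32 (SE) (adjusted p = 0.326). Oas1a shares 57.6% of its stretches with Oas1g, so the split of reads between them is uncertain. Of the 6 OAS genes, 5 had knockout libraries below wild type, against 3.07% of genes tested.

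Direct restriction effectors act on virus particles, entry or replication. Bst2 encodes tetherin, which holds budding particles at the cell surface, and was at 233, 263 and 382 FPKM in the wild-type libraries, 226, 196 and 188 in M-Shp2-/- and 259, 224 and 295 with SHP099. Its knockout libraries lay below wild type by a small margin, and the SHP099 libraries overlapped both groups. The fold change in M-Shp2-/- was -0.49 ± 0.19 (SE), or -0.28 without WT_3, and with SHP099 -0.15 ± 0.19 (SE), or 0.06 without WT_3. Ly6e, which restricts coronavirus entry, was at 175, 173 and 309.6 FPKM in the wild-type libraries, 105, 109 and 85 in M-Shp2-/- and 122, 96.5 and 191 with SHP099. Here WT_1 and WT_2 were close together, the knockout libraries lay below them, and SHP099_3 lay between WT_1 and WT_3. The fold change in M-Shp2-/- was -1.08 ± 0.24 (SE) (adjusted p = 0.388), and -0.81 without WT_3. Of the 10 genes of this role, 5 had knockout libraries below wild type, against 3.07% of genes tested. SHP099 libraries lay below wild type for 1, Mx2, against 6.77%.

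ISG15 is a ubiquitin-like protein, USP18 removes it and restrains the receptor, and TRIM proteins are ubiquitin ligases. Isg15 was at 34.2, 75.2 and 179.5 FPKM in the wild-type libraries, 25.1, 25.4 and 35.3 in M-Shp2-/- and 44.2, 32.8 and 57.8 with SHP099. KO_3 lay just above WT_1, so the groups overlapped. Its fold change was -1.42 ± 0.55 (SE) in M-Shp2-/-, or -0.82 without WT_3, and -0.81 ± 0.54 (SE) with SHP099, or -0.21 without WT_3. Usp18 was at 13, 17.3 and 55.9 FPKM in the wild-type libraries, 5.29, 6.1 and 7.96 in M-Shp2-/- and 6.26, 5.13 and 9.38 with SHP099. Both other groups lay below wild type, with fold changes of -1.73 ± 0.50 (SE) in M-Shp2-/- and -1.66 ± 0.50 (SE) with SHP099, or -1.12 and -1.05 without WT_3.

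Trim25 (ENSMUSG00000000275), the ligase that modifies the RNA sensor RIG-I, was at 54.2, 57.5 and 81.7 FPKM in the wild-type libraries, 40.6, 46.7 and 34.4 in M-Shp2-/- and 28.9, 27.8 and 27.9 with SHP099. The 3 groups did not overlap, and the SHP099 libraries lay below the knockout libraries. Trim25 fell with SHP099 against wild type (-1.14 ± 0.15 (SE), adjusted p = 0.0142, lower in 3 of 3 libraries), and without WT_3 its fold change was -0.96 (adjusted p = 0.0041). Under 3 other scalings its adjusted p was between 0.0142 and 0.0230, and without the filter on low values, which adds genes to the adjustment, it was 0.0711. It missed the threshold for a call, and its adjusted p was 0.0601, 0.0888 and 0.0606 when SHP099_1, SHP099_2 and SHP099_3 were left out in turn. In M-Shp2-/- against wild type its fold change was -0.64 ± 0.19 (SE) (adjusted p = 0.454), or -0.46 without WT_3. Against SHP099 it was 0.50 ± 0.12 (SE) (adjusted p = 0.267).

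Trim30a was at 77.7, 101 and 139.5 FPKM in the wild-type libraries, 49.2, 60 and 45.2 in M-Shp2-/- and 48.1, 44.9 and 65.3 with SHP099. Both other groups lay below wild type, and the fold changes were -0.998 ± 0.22 (SE) and -0.97 ± 0.23 (SE), with adjusted p of 0.388 and 0.0508. Without WT_3 they were -0.78 and -0.75. Herc6, the main ligase for ISG15 in mouse, was at 15.2, 22.6 and 35 FPKM in the wild-type libraries, 11, 13.3 and 13.4 in M-Shp2-/- and 20.9, 14.7 and 20.4 with SHP099. Its knockout libraries lay below both other groups, and the SHP099 libraries overlapped wild type. Of the 7 genes of this role, 5 had knockout libraries below wild type and 3 had SHP099 libraries below, against 3.07% and 6.77% of genes tested.

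**Figure D3:**
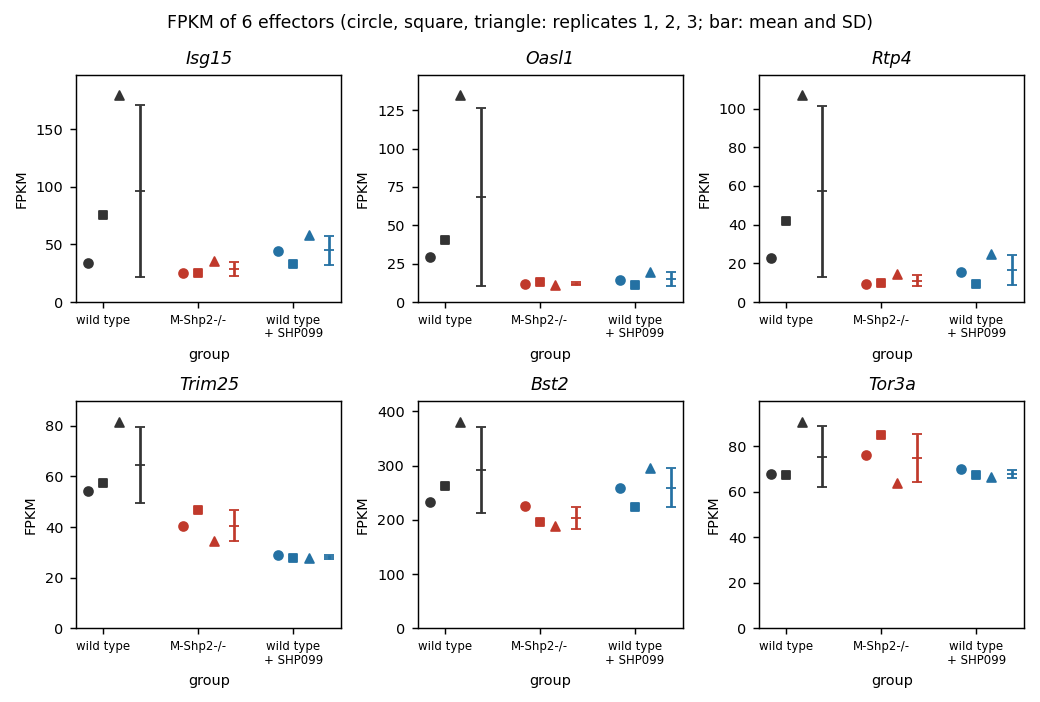
FPKM of 6 effectors in the 9 libraries, with circles, squares and triangles for replicates 1, 2 and 3, and a bar for the mean and SD of 3 libraries. WT_3 is the highest library in each panel, the Trim25 values of the SHP099 group lie within 27.8 to 28.9 FPKM, and the groups of Tor3a overlap.

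PARP proteins add ADP-ribose to proteins. Parp14 was at 97.2, 122 and 229 FPKM in the wild-type libraries, 66.5, 74 and 106 in M-Shp2-/- and 101, 96.1 and 126 with SHP099. Parp9, which pairs with DTX3L, was at 39.7, 53.6 and 103 FPKM in the wild-type libraries, 32.5, 34.4 and 44 in M-Shp2-/- and 50.1, 47.1 and 55.5 with SHP099. Parp12, which inhibits viral translation, was at 33.4, 47.7 and 85.5 FPKM in the wild-type libraries, 26.7, 26.9 and 36.8 in M-Shp2-/- and 41.5, 37.4 and 49.1 with SHP099. In these genes KO_3 lay above WT_1, and knockout libraries of Parp9 and Parp12 lay below the SHP099 libraries. With SHP099 the fold change was -0.24 ± 0.31 (SE) for Parp9 and -0.28 ± 0.31 (SE) for Parp12, and without WT_3 0.14 and 0.084, of the opposite sign. Parp9 and Dtx3l overlap on opposite strands, and the counting is not stated to use strand, so their reads cannot be told apart there.

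Nuclear body proteins include SP100 and PML, and HELZ2 is a coactivator helicase. Sp100 was at 26.2, 46.7 and 63.4 FPKM in the wild-type libraries, 21, 23.1 and 27.8 in M-Shp2-/- and 27.6, 22.8 and 29.5 with SHP099. Helz2 was at 19.1, 26.4 and 41.9 FPKM in the wild-type libraries, 13, 14 and 16.2 in M-Shp2-/- and 15.7, 13.3 and 16.3 with SHP099. For Helz2 both other groups lay below wild type, with fold changes of -0.90 ± 0.27 (SE) and -0.84 ± 0.26 (SE), or -0.61 and -0.55 without WT_3, and Sp100 overlapped through KO_3 and the SHP099 libraries. Among other induced proteins, Rtp4, a transporter chaperone, was at 22.8, 42 and 107 FPKM in the wild-type libraries, 9.14, 9.77 and 14.4 in M-Shp2-/- and 15.4, 9.23 and 25 with SHP099. Its knockout libraries lay below wild type, SHP099_3 lay above WT_1, and the fold changes were -2.01 ± 0.52 (SE) and -1.55 ± 0.56 (SE), or -1.43 and -0.97 without WT_3. Tor3a, an ATPase of the endoplasmic reticulum, was at 67.8, 67.5 and 90.8 FPKM in the wild-type libraries, 76, 84.9 and 63.7 in M-Shp2-/- and 69.8, 67.2 and 66.4 with SHP099. The groups overlapped, and the fold change in M-Shp2-/- was -0.0053 ± 0.16 (SE), or 0.13 without WT_3.

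Of the 23 effectors not given in full, Ifit3b was not tested, and the others had log2 fold changes between -1.60 and -0.082 in M-Shp2-/-, and between -1.23 and -0.17 with SHP099. Without WT_3 these ranges were -1.03 to -0.092 and -0.60 to 0.29. Against SHP099, those in M-Shp2-/- lay between -0.75 and 0.31. Among them, 11 had knockout libraries below wild type and 2 had SHP099 libraries below, against 3.07% and 6.77% of genes tested. Ifi44 passed the filter on low values mainly through WT_3, at 6.22 FPKM against at most 1.23 elsewhere, and Slfn8 passed narrowly with a mean of 1.01 FPKM. Exons of Herc6, Rtp4, Parp14 and Sp100 overlap genes on the same strand, and those of Oasl1, Usp18, Eif2ak2, Dhx58, Slfn5, Pml and Ifi35 overlap genes on the other strand. Trim30a, Ifi204, Ifit1 and Slfn8 share stretches with related genes, so the values of these genes are uncertain to that extent.

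**Figure D4:**
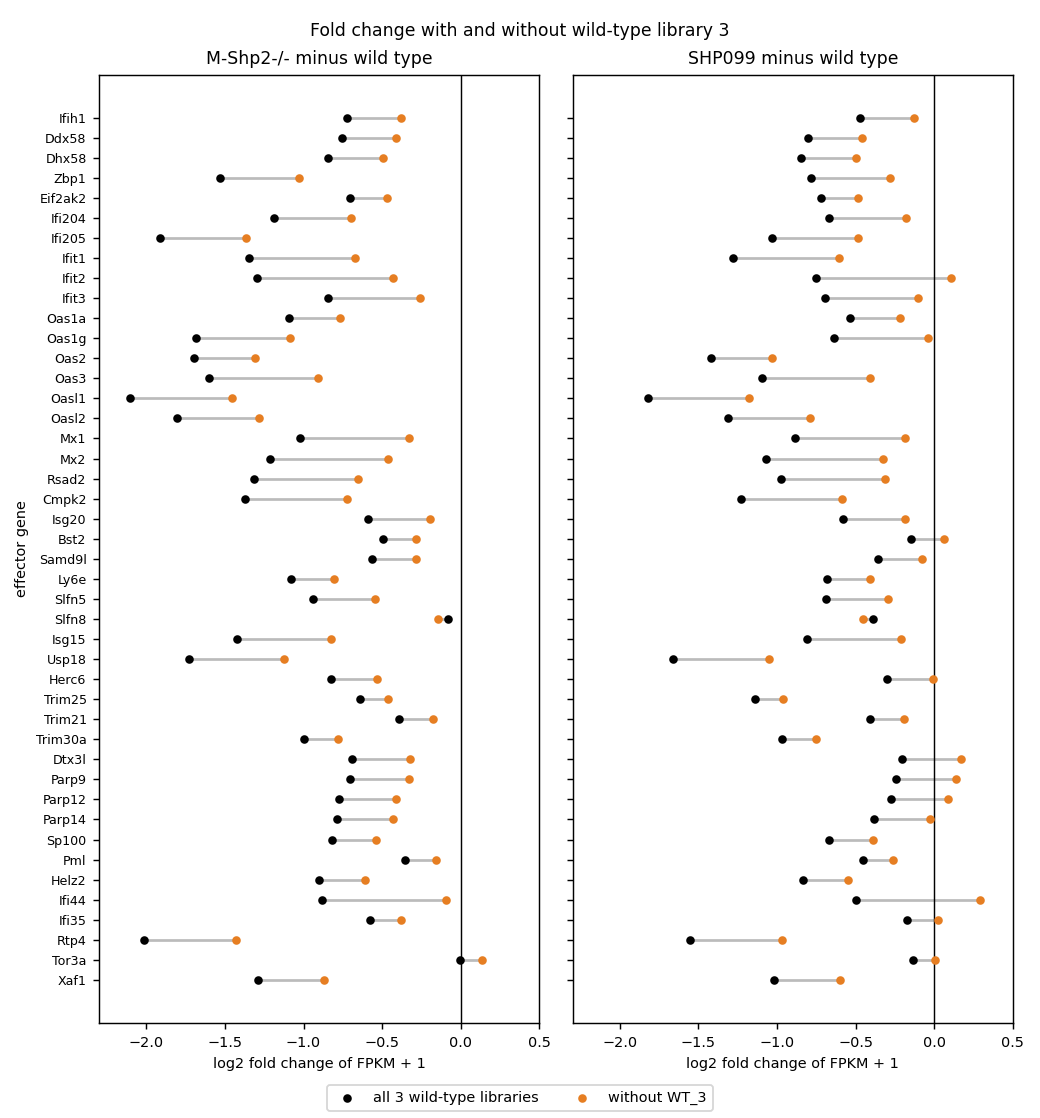
Log2 fold change of FPKM + 1 for each of 44 effectors with all 3 wild-type libraries (black) and without WT_3 (orange), for M-Shp2-/- and SHP099 against wild type. The median over effectors moves from -0.92 to -0.51 in M-Shp2-/- and from -0.71 to -0.29 with SHP099.

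Gene loss and inhibitor were also set against each other. Of 44 effectors, 36 had a negative log2 fold change in M-Shp2-/- against SHP099, against 46.8% of genes tested. In 8 the knockout libraries lay below, against 9.76% of genes tested, and in 1, Trim25, above, against 7.9%. By limma 0 effectors were called, against 0% of genes tested, and 0 reached an adjusted p of 0.05, against 0.0699%. At an unadjusted p under 0.05 there were 11, against 12.6% of genes tested, and 11 by voom, which also called 0. Without KO_3, 9 effectors had an adjusted p of at most 0.05: Dtx3l, Ifi204, Ifi205, Oas1a, Oas1g, Parp9, Parp12, Parp14 and Trim25. The same omission gave 2277 of 11450 genes at that threshold, against 8 with all libraries. The count whose libraries do not overlap, 9, was 21 without KO_3 or without SHP099_2, omissions for which no such share over all genes is given. The median of the effectors was -0.27, beside 0.017 over all genes tested, and ranged from -0.45 without SHP099_2 to -0.12 without SHP099_3.

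Interferon genes themselves were near 0. Of 18 ligand genes, 15 were at 0 in each library. Ifnb1 was at 1 read in WT_3 and KO_1 and at 0 in the other 7 libraries, where 3 reads, the limit that a count of 0 allows, would be between 0.0785 and 0.1 FPKM. This limit covers counting error only.

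The receptor chains were abundant in each library. Ifnar1 was at 88.9, 86.6 and 90.3 FPKM in the wild-type libraries, 82.3, 84.9 and 79.1 in M-Shp2-/- and 76.9, 84.3 and 80 with SHP099. Ifnar2 was at 92.9, 99.3 and 109 FPKM in the wild-type libraries, 95.1, 91.3 and 102 in M-Shp2-/- and 90.3, 94.1 and 98.1 with SHP099. Both other groups of Ifnar1 lay just below wild type, and those of Ifnar2 overlapped it. Their fold changes in M-Shp2-/- were -0.11 ± 0.078 (SE) and -0.062 ± 0.10 (SE). The smallest adjusted p of the 4 receptor and kinase genes over the 3 comparisons was 0.269, of Ifnar1 with SHP099. Among the factors, Stat2 was at 39.9, 54.9 and 109 FPKM in the wild-type libraries, 28, 32 and 27.7 in M-Shp2-/- and 35, 23.3 and 38 with SHP099. Irf9 was at 25.2, 35.6 and 43.6 FPKM in the wild-type libraries, 16.8, 20.8 and 21.9 in M-Shp2-/- and 24.7, 17.7 and 26.8 with SHP099. Irf7 was at 42.5, 66.1 and 194 FPKM in the wild-type libraries, 15.4, 16.4 and 34.3 in M-Shp2-/- and 35.2, 27.1 and 60.3 with SHP099. Knockout libraries of Stat2, Irf9 and Irf7 lay below wild type, and WT_3 was again highest in these. Exons of Ifnar2, Irf9 and Irf7 overlap other genes, whose reads may be included. The smallest adjusted p of these 3 factor genes over the 3 comparisons was 0.147, of Stat2 with SHP099.

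**Figure D5:**
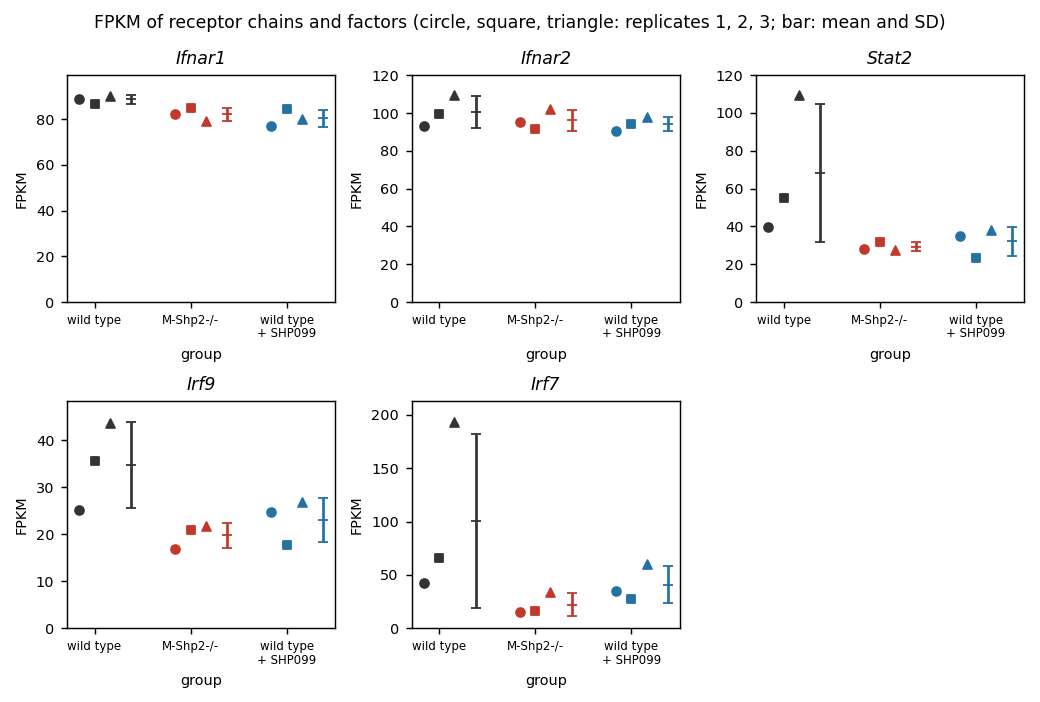
FPKM of the receptor chains Ifnar1 and Ifnar2 and of Stat2, Irf9 and Irf7 in the 9 libraries, with circles, squares and triangles for replicates 1, 2 and 3 and a bar for the mean and SD of 3 libraries. Ifnar1 and Ifnar2 span narrow ranges, and Irf7 reaches 194 FPKM in WT_3.

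Negative regulators include SOCS proteins and phosphatases. Socs3, an inhibitor of cytokine receptor signaling, was at 888, 1009.9 and 1517 FPKM in the wild-type libraries, 488, 443 and 434 in M-Shp2-/- and 368, 315 and 450.2 with SHP099. Both other groups lay below wild type, and Socs3 fell with SHP099 (-1.57 ± 0.22 (SE), adjusted p = 0.0157, lower in 3 of 3 libraries), while in M-Shp2-/- its fold change was -1.28 ± 0.20 (SE) (adjusted p = 0.204). With SHP099 its adjusted p was 0.0651 without SHP099_1, 0.0888 without SHP099_2 and 0.0809 without the filter on low values. Of the 7 negative regulators, 1 reached an adjusted p of at most 0.05 in each comparison, downward: Socs3 with SHP099, against 6.96% of genes tested, and the deleted gene Ptpn11 in M-Shp2-/- against wild type and against SHP099, where 0.0873% and 0.0699% did. Against SHP099, the adjusted p of Ptpn11 was 0.0109, and 0.115, 0.0641, 0.0534, 0.0942 and 0.0996 without KO_1, KO_2, SHP099_1, SHP099_2 and SHP099_3 in turn, and 0.146 with the block. Tlr7, the receptor that IMQ engages, was at 89.6, 87 and 103 FPKM in the wild-type libraries, 73.8, 88.5 and 72 in M-Shp2-/- and 49.6, 48.7 and 67.8 with SHP099. It fell with SHP099 (-0.75 ± 0.14 (SE), adjusted p = 0.0314, lower in 3 of 3 libraries), as 1 of 9 genes of TLR7 and its adaptors, against 6.96% of genes tested, and overlapped wild type in M-Shp2-/-. The adjusted p of Tlr7 with SHP099 was 0.071, 0.0546, 0.121 and 0.142 without WT_1, WT_2, SHP099_1 and SHP099_2 in turn, and 0.111 without the filter. Irf1, singled out after its values were seen, was at 249, 286 and 1062 FPKM in the wild-type libraries, 190.3, 239 and 341 in M-Shp2-/- and 561, 511 and 673 with SHP099. With SHP099 the fold change of Irf1 was 0.45 ± 0.51 (SE) (adjusted p = 0.627), and without WT_3 1.11 (adjusted p = 0.0118). The same omission put 1273 of 11450 genes tested at an adjusted p of at most 0.05. Exons of Irf1 overlap a gene on the other strand.

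A list of 53 other interferon-stimulated genes, 46 of them tested, was read beside the effectors. WT_3 was the highest library for 39 of the tested genes. Of the 46, negative fold changes numbered 42 in M-Shp2-/- and 38 with SHP099 against wild type, against 22.6% and 28.8% of genes tested. Libraries lay wholly below wild type for 18 and 10, against 3.07% and 6.77%. The median fold change was -0.53 in M-Shp2-/- and -0.34 with SHP099. Without WT_3 the medians were -0.26 and -0.084, with 42 and 26 negative fold changes. The smallest adjusted p in M-Shp2-/- was 0.184, of Ifi203, and with SHP099 2 of the 46 genes fell, Trim30c and Ms4a4c, against 6.96% of genes tested at that threshold. Trim30c was at 5.16, 6.46 and 16.4 FPKM in the wild-type libraries, 1.17, 0.949 and 0.92 in M-Shp2-/- and 1.37, 0.644 and 2.69 with SHP099. Ms4a4c was at 23.8, 8.11 and 42 FPKM in the wild-type libraries, 3.46, 8.05 and 2.3 in M-Shp2-/- and 2.71, 2.04 and 5.04 with SHP099. Their fold changes with SHP099 were -1.93 ± 0.44 (SE) and -2.39 ± 0.55 (SE), with adjusted p of 0.0477 and 0.0477. Both passed narrowly, and under median-of-ratios scaling their adjusted p was 0.0673 and 0.0653, by voom 0.063 and 0.0986, and without the filter 0.173 and 0.177. Without WT_1, WT_2, SHP099_1, SHP099_2 and SHP099_3 in turn, that of Trim30c was 0.066, 0.072, 0.156, 0.184 and 0.0805. Without WT_1, WT_3, SHP099_1, SHP099_2 and SHP099_3, that of Ms4a4c was 0.115, 0.0575, 0.159, 0.191 and 0.0925. Exons of Ifi203 and Ms4a4c overlap other genes, whose reads may be included.

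Cell type markers were summed in each library, and their part in the results was not tested. The 8 macrophage genes summed to 10420.2, 13421 and 11189 FPKM in the wild-type libraries, 7595, 7468 and 8412 in M-Shp2-/- and 11778, 13005 and 13736 with SHP099. Lyz2, whose promoter drives the cre, made up most of these sums. Without it the other 7 genes summed to 2979.9, 3194 and 3238 FPKM in the wild-type libraries, 2732, 2726 and 3005 in M-Shp2-/- and 2430.1, 2725 and 3021 with SHP099, and the groups overlapped. In M-Shp2-/- against wild type, 6 of the 8 had a negative fold change, with a median of -0.44, or -0.37 without WT_3. The knockout libraries lay below wild type for Lyz2 (-0.76 ± 0.16 (SE), adjusted p = 0.388) and Mertk (-0.97 ± 0.27 (SE), adjusted p = 0.454). With SHP099, 5 of the 8 had a negative fold change, and the libraries of Cd68 lay below wild type (-0.14 ± 0.092 (SE), adjusted p = 0.395). Of the 8, 1 passed the test, with SHP099, against 6.96% of genes tested. This was Csf1r, whose exons overlap a gene on the other strand, and which rose (adjusted p = 0.0222). Its adjusted p was 0.076, 0.116 and 0.0774 without SHP099_1, SHP099_2 and SHP099_3 in turn, 0.0575 under median-of-ratios scaling and 0.0979 without the filter. The 5 fibroblast genes, led by Col1a1, summed to 63.8, 302 and 39.7 FPKM in the wild-type libraries, 135, 51.4 and 585 in M-Shp2-/- and 361, 137 and 101 with SHP099. WT_3 was the lowest and KO_3 the highest library, and the groups overlapped.

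Plasmacytoid dendritic cells are known for high interferon output. Their defining marker Siglech was at 0 in 8 libraries and at 6 reads in WT_3. The 6 genes of that list, led by Cox6a2, summed to 27.8, 29.3 and 29.2 FPKM in the wild-type libraries, 39.6, 35.3 and 35.6 in M-Shp2-/- and 38, 36.8 and 36.6 with SHP099. Without Cox6a2 the other 5 summed to 18.2, 19 and 22.8 FPKM in the wild-type libraries, 23, 18.1 and 17.8 in M-Shp2-/- and 14, 16 and 15.9 with SHP099, where the knockout libraries overlapped wild type and the SHP099 libraries lay below it. Tcf4, the most abundant of these 5, lay below wild type in both other groups, with adjusted p of 0.494 and 0.181. Of the 3 genes of this list tested, 2 reached an adjusted p of at most 0.05 with SHP099, against 6.96% of genes tested. Cox6a2, whose exons overlap Itgad on the other strand, rose (adjusted p = 0.0151) and Ly6d fell (adjusted p = 0.0268). Without SHP099_1, SHP099_2 and SHP099_3 in turn, the adjusted p of Cox6a2 was 0.0681, 0.0888 and 0.0606, and without the filter 0.0726. That of Ly6d was 0.0525, 0.132 and 0.0856 without the same libraries, 0.0722 without WT_1, 0.0595 without WT_2, 0.0843 without the filter and 0.121 with 9 libraries in 1 fit. The 6 neutrophil genes, led by S100a8, summed to 45.8, 104 and 64.7 FPKM in the wild-type libraries, 53.1, 49 and 108 in M-Shp2-/- and 57.1, 60.1 and 81 with SHP099. Without S100a8 the sum of the other 5 was 8.62, 7.03 and 8.25 FPKM with SHP099, below the lowest wild-type library at 9.15, and the knockout libraries overlapped wild type. Their defining marker Ly6g was at 1 read in KO_1 and KO_3 and at 0 in the other 7 libraries.

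Lists with little signal completed the markers. The 5 conventional dendritic cell genes, led by Zbtb46, summed to 1.24, 1.28 and 0.809 FPKM in the wild-type libraries, 1.83, 1.33 and 1.66 in M-Shp2-/- and 0.784, 0.725 and 0.619 with SHP099. The knockout sums lay above wild type and the SHP099 sums below it, by small margins. The 5 T and NK cell genes, led by Cd3g, summed to 0.328, 1.28 and 2.83 FPKM in the wild-type libraries, 0.255, 0.283 and 1.43 in M-Shp2-/- and 4.68, 3.11 and 2.71 with SHP099. These were lowest in KO_1, KO_2 and WT_1 and highest in SHP099_1, and both other groups overlapped wild type. The 5 mast cell and eosinophil genes, led by Tpsb2, summed to 1.11, 3.15 and 3.62 FPKM in the wild-type libraries, 1.08, 0.229 and 1.06 in M-Shp2-/- and 0.312, 0.209 and 0.614 with SHP099. Sums of both other groups lay below wild type, KO_1 just below WT_1. No gene of these lists reached the filter, so none was tested. The 4 mesothelial genes, led by Wt1, summed to 2.5, 7.57 and 1.56 FPKM in the wild-type libraries, 4.27, 1.42 and 8.97 in M-Shp2-/- and 5.81, 4.59 and 2.41 with SHP099. In the mesothelial list the groups overlapped. WT_3 was the highest library in the mast cell and eosinophil list, and KO_3 in the mesothelial list.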

How the data were processed

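Polyadenylated RNA of 9 libraries, 3 in each of 3 groups named by the labels, was compared. The authors deposited FPKM per gene. The submitters' processing notes name CASAVA 1.8, HISAT2 2.0.4 and HTSeq 0.9.1, and the genome build, strand setting and FPKM step are not given in the sources used here. A second table, of genes outside the annotation, was not used. Symbols came from GENCODE M21. Values were tested as log2(FPKM + 1) with limma 3.58.1 in R 4.3.3 (eBayes with trend) on genes averaging 1 FPKM or more, within the 6 libraries of each comparison, with Benjamini-Hochberg adjustment over the 11450 genes tested. The count test of the study was replaced by limma because the values are FPKM. Calls required an adjusted p up to 0.005 with a log2 fold change of 1 or more in size, and an adjusted p up to 0.05 was counted separately. Reads were recovered from FPKM and mean transcript length: between 96.3% and 96.7% of values of up to 50 reads were whole within 0.05. These served for depth and for limma's voom, and floors cover counting error only. Python 3.11.15 made tables, and promoters came from RefSeq (GRCm38.p6). Genes named as sharing 50-base transcript stretches with other genes are called uncertain. Isg15 (3.96%), Mx1 (4.37%) and Mx2 (4.38%), among others, share stretches too and are not so marked. Values in each library were given for effectors with an adjusted p of at most 0.05, for the 2 most abundant of each role, and for the 3 largest fold changes in each direction among those whose libraries do not overlap. Members and lists were chosen with earlier results of these data known. Alternatives were the pseudocount, the filter, 3 scalings, eBayes without trend, 1 fit of 9 libraries, a replicate block, voom and leaving out each library. Some genes and lists are not reported here.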

Additional observations from a re-analysis of the deposited data

How the results depend on the processing

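Called effectors stayed at 0 in each comparison under the alternatives, except that dropping the fold threshold and using an adjusted p of at most 0.05 gave 1 for SHP099 against wild type. There, the count at an adjusted p of at most 0.05 was 1 and became 0 with no filter on low FPKM (more genes tested, Trim25 at 0.0711), 2 with a mean FPKM of at least 5 (Trim25 and Trim30a) and 3 with 9 libraries in 1 fit (Oas2, Trim25 and Trim30a). Leaving out 1 library gave 0 to 5 effectors for SHP099 against wild type and 0 to 9 for M-Shp2-/- against SHP099. Over all genes tested it gave 47 to 1273 and 0 to 2277 of 11450. Effectors whose libraries do not overlap numbered 24 to 39 when M-Shp2-/- was set against wild type. They numbered 9 to 30 for SHP099 and 9 to 21 between M-Shp2-/- and SHP099. Fewer libraries make overlap rarer for any gene, and no share over all genes is given for the omissions. Among effectors given in full, signs turned only when a library was left out. In M-Shp2-/- against wild type Tor3a ranged from -0.10 to 0.13. In SHP099 against wild type the ranges were -1.24 to 0.11 for Ifit2, -0.30 to 0.060 for Bst2, -0.54 to 0.14 for Parp9, -0.58 to 0.084 for Parp12 and -0.21 to 0.0033 for Tor3a. In M-Shp2-/- against SHP099 they were -0.33 to 0.19 for Ifit1, -0.24 to 0.14 for Usp18, -0.14 to 0.13 for Trim30a and -0.15 to 0.00057 for Helz2. Of the other effectors, Slfn8 turned to 0.068 without WT_1 in M-Shp2-/- against wild type, and Ifi44, Dtx3l and Ifi35 turned to 0.29, 0.17 and 0.025 without WT_3 with SHP099. Between M-Shp2-/- and SHP099, 10 others turned, Dhx58, Eif2ak2 and Trim21 also under another scaling. The cause of these shifts was not tested.

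The samples share only a number: same-numbered libraries correlated between -0.43 and 0.49 in their deviations from group means. With the replicate number as a block, 5 effectors had an adjusted p of at most 0.05 for SHP099 against wild type, against 591 of 11450 genes tested. These were Ly6e, Oasl1, Trim25, Trim30a and Usp18. In the other comparisons 0 effectors did. Over all genes tested, 2 did in M-Shp2-/- against wild type and 0 in M-Shp2-/- against SHP099.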
